A study of Homo sapiens with 102 samples.

Results

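The 10 position codes T084 to T093 mark consecutively numbered centromere-forming repeat units (CenU) in human artificial chromosomes (HACs). A position code is a short designed sequence that was built into each repeat unit so that otherwise identical repeats can be told apart by sequencing. The 10 codes were taken by number out of 128 T codes and 512 codes in all. Numbers follow the designed order of the units. The paper reported that the HAC DNA was rearranged relative to the input DNA. Codes that follow each other by number thus need not lie side by side in a HAC, and the reads of a code pool all its copies. The 10 codes follow T083, the last code of the stretch with many CENP-A reads that earlier values of untreated cells had drawn. The members were thus selected on the CENP-A reads of untreated cells. Those reads are given as a description, and no test on them is used as support. A code was counted as carried by a HAC line when its median share of the T reads over the 49 libraries of that line was at least 0.1%. By this rule HAC 1-20 carried all 10 codes among its 61 carried T codes, and HAC 4-65 carried 9 among its 75. Both lines carried 27 T codes in common, 9 of them from T084 to T093.

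The study counted position codes in chromatin immunoprecipitates of HT1080 cells, a human fibrosarcoma line, that carry HACs built from such units. The 98 libraries of HAC 1-20 and HAC 4-65 covered 7 antibodies (against CENP-A, H3K4me2, H3K14ac, H4K8ac, H4K20me1, H3K36me2 and H3K9me3) in 7 conditions. The conditions were untreated cells, a thymidine block at the G1/S boundary, a colcemid arrest in metaphase, cells 3 h after release from colcemid, and cells given siControl, siKAT7 or siHJURP. Each HAC line is 1 clone, and each library was made from a pool of 3 ChIP reactions, so every line, antibody and condition has 1 library. The T reads per library ranged from 1264 to 541943, with a median of 64997. Of the 6 libraries under 10000 matched reads, 4 were CENP-A libraries: thymidine, siControl and siHJURP in HAC 4-65, with 2599, 1264 and 5319 T reads, and siKAT7 in HAC 1-20 with 3960.

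CENP-A is the histone H3 variant that marks the active centromere, and HJURP is the chaperone that deposits it. CenU repeats hold CENP-B boxes, the binding site of CENP-B, whereas the other repeat type of these HACs, NCU, holds changed boxes and was taken to be read out by the L codes. H4K20me1 is found on CENP-A nucleosomes, H3K9me3 is the mark of heterochromatin, H3K4me2, H3K36me2, H3K14ac and H4K8ac are mostly found in transcribed or open chromatin, and KAT7 is an acetyltransferase that acts on H3K14.

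The sequences of the 10 codes are shown because the reads were told apart by so few bases. All are 23 bases long, and the capitals mark positions 14, 15, 19 and 20, counted from 1 at the 5′ end, where the 10 codes differ from each other.
T084: ggggaaaattcccACtttACggg
T085: ggggaaaattcccTAtttTAggg
T086: ggggaaaattcccTTtttTTggg
T087: ggggaaaattcccTGtttTGggg
T088: ggggaaaattcccTCtttTCggg
T089: ggggaaaattcccGAtttGAggg
T090: ggggaaaattcccGTtttGTggg
T091: ggggaaaattcccGGtttGGggg
T092: ggggaaaattcccGCtttGCggg
T093: ggggaaaattcccCAtttCAggg
The sequences come from the study's list of designed codes, where they are named CenU with the same numbers; the links from T to CenU and from L to NCU rest on these numbers. The list holds 96 NCU codes and the files hold 384 L codes. The bases at positions 19 and 20 repeat those at 14 and 15, so any pair among the 10 differs at 2 or more positions. Each of them is 1 mismatch from another CenU code, and 1 mismatch (G4C, with the CenU base first) from the NCU code of the same number. The codes are synthetic and have no coordinate in the human genome.

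T085 and T088 lay at the edge of the rule. T088 was the carried code with the fewest reads in both lines, with a median share of 0.103% in HAC 1-20 and 0.156% in HAC 4-65, against 0.646% and 0.272% for the next lowest carried codes. T085 fell just outside in HAC 4-65 at 0.0998%, and the next code below it had 0.0687%. In HAC 1-20, by contrast, T085 was an ordinary code at 2.18%.

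Reads of both codes were also small beside those of the L code that differs by 1 base. T088 had 5.42% as many reads as L088 over all libraries of HAC 1-20 and 2.66% in HAC 4-65, and T085 had 1.79% as many as L085 in HAC 4-65. The other members reached between 25.8% and 135% of their L codes. For comparison, the 63 codes from T002 to T064 that HAC 1-20 did not carry had a median of 0.513% and a maximum of 1.99%. T088 of HAC 1-20 thus lay above the range of these codes. No such range was taken in HAC 4-65, so T085 and T088 of that line are not placed by it. The part of misread L reads in T088 was not tested.

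In untreated HAC 1-20 cells each of the 10 codes had a lower CENP-A share than T083, by uneven amounts. T083, the last code before them, took 2.76% of the 52141 T reads (95% exact binomial interval 2.62 to 2.90), and T084 took 2.31% (2.18 to 2.44). T085 and T086 took 1.57% and 1.43%, T087 took 2.71% (2.57 to 2.85), and T089, T090 and T091 took 1.70%, 1.85% and 1.95%. T092 was at 0.823%, T093 at 1.14% and T094, the first code after them, at 0.817%. T088 took 0.105%, from 55 reads. Together the 10 codes held 15.6% of the T reads (15.3 to 15.9), close to the 16.4% that they make up of the carried codes. All such intervals cover counting error only: the reads were amplified by PCR and carry no molecular identifiers.

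In untreated HAC 4-65 cells the same codes held far more of the library and were very uneven. T091 took 5.49% of the 132561 T reads (5.37 to 5.61) and T090 took 5.21% (5.09 to 5.33), the highest and the second highest of the 75 carried codes. T087 took 3.64%, T089 2.61%, T084 2.40% and T092 2.11%. T093 was at 1.28%, T086 at 0.646% and T088 at 0.103%. T085, which the line did not carry, had 42 reads or 0.0317%. The 9 carried codes together held 23.5% (23.3 to 23.7) while making up 12% of the carried codes.

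The share of a code depends on how many copies of it a line has as well as on how much CENP-A sits on each copy. DNA from before immunoprecipitation was not used here. The 6 histone marks of the same cells were therefore set beside CENP-A. If a code is high in every antibody, CENP-A alone does not set it apart.

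T090 was high in every antibody in untreated HAC 4-65 cells. Its share was 5.88% with H3K4me2, 6.97% with H3K14ac, 6.48% with H4K8ac, 2.97% with H4K20me1, 5.00% with H3K36me2 and 5.09% with H3K9me3. It ranked first or second of the 75 carried codes in all 6 marks. Relative to the median carried code of the same library it stood 5.12-fold higher with CENP-A, and between 2.29-fold (H4K20me1) and 8.80-fold (H3K4me2) higher with the marks, with a median of 7.59-fold. The excess with CENP-A was thus smaller than the median excess with the marks.

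T091 was high in some marks and less so in others. Its share in the same cells was 7.09% with H3K4me2, 4.94% with H3K14ac, 4.52% with H4K8ac, 2.35% with H4K20me1, 3.40% with H3K36me2 and 3.15% with H3K9me3. Its rank was first with H3K4me2, 4 with both acetyl marks, 7 with H4K20me1 and 9 with H3K36me2 and H3K9me3. It stood 5.39-fold above the median code with CENP-A, and 1.82-fold (H4K20me1) to 10.6-fold (H3K4me2) above it with the marks, with a median of 4.98-fold. For T091 the excess with CENP-A was within the range of the marks.

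The high reads of T090 recurred across conditions. T090 was the code with the most reads in 22 of the 49 libraries of HAC 4-65 and among the first 5 in 42, and with H3K36me2 it ranked first in 7 of 7 libraries. T091 came first in 11 and was among the first 5 in 28. In HAC 1-20 neither code came first in any of the 49 libraries, and their median ranks among 61 codes were 20 and 34. T087, T089 and T092 were also above the median code in every antibody of untreated HAC 4-65 cells, as was T083 outside the members. T084 and T093 were above it except with H4K20me1, where they stood at 0.99-fold and 0.85-fold.

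CENP-A density was then computed to take the marks as a stand-in for copy number. It is log2 of the CENP-A reads plus 0.5, minus the mean of the same log2 value over the 6 marks of the same cells, set to 0 at the median of the carried codes. A density of 1 is therefore a doubling of CENP-A relative to the marks. It falls wherever the marks rise, so it is a relative measure.

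By density T090 and T091 lay in the middle of the carried codes of HAC 4-65. T090 had a density of 0.00 (95% counting interval -0.04 to 0.04) and ranked 38 of 75, and T091 had 0.46 (0.42 to 0.50) and ranked 32 of 75. Over the 7 conditions the density of T090 ranged from -0.69 (siHJURP) to 0.07 (thymidine) and that of T091 from -0.76 (release) to 0.46 (untreated). T090 was above 0 in 1 of 7 conditions and T091 in 2 of 7, so the value of T091 in untreated cells was its highest. In untreated HAC 1-20 cells T090 had a density of -0.31 (-0.45 to -0.17) and T091 of 0.03 (-0.16 to 0.22), ranks 34 and 30 of 61.

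As a group the codes numbered past T083 had a lower CENP-A density than the codes numbered before it. This is an order of numbers, not a map of either HAC. In untreated HAC 1-20 cells the median density was 0.77 over the 13 carried codes from T070 to T083, -0.34 over the 10 codes from T084 to T093, and -1.34 over the 16 carried codes from T094 to T110. In HAC 4-65 the medians were 0.81 over 13 codes, -0.30 over 9 and -1.65 over 2. The step from the codes before to T084 to T093 was -1.11 in both lines. The untreated values drew the border, so this step carries no test.

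The other 6 conditions are cells of the same 2 clones, and their libraries entered the rule for carried codes. Their steps are therefore a description too, not independent support. The step was below 0 in 6 of 6 of these conditions in each line. It ranged from -1.82 (colcemid) to -0.44 (siKAT7) in HAC 1-20 and from -2.15 (colcemid) to -1.05 (siHJURP) in HAC 4-65. The siKAT7 value of HAC 1-20 and the siHJURP value of HAC 4-65 rest on shallow CENP-A libraries. The further step to T094 to T110 was also below 0 in 6 of 6 of these conditions in both lines.

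The border at T083 was not seen in both lines. In HAC 1-20 the density of T083 was 0.66 and that of T084 0.53, with overlapping intervals (0.47 to 0.85 and 0.32 to 0.74), and the code T084 was above 0 in 7 of 7 conditions, between 0.46 and 0.98. The lower values came after it, with 0.00 at T085, -0.01 at T086 and -0.42 at T087. In HAC 4-65 the density had already dropped from 0.35 at T079 to -1.49 at T080, and T081, T082 and T083 stood at -1.89, -1.26 and -0.71. T084 then had -0.13 and lay above T083 in 5 of 7 conditions. Against T080 to T083 alone, a comparison chosen after seeing the values, the median of T084 to T093 was 1.23 lower on the log2 scale in HAC 1-20 (-1.23) and 1.07 higher in HAC 4-65. The difference of HAC 1-20 held its sign in 7 of 7 conditions, and that of HAC 4-65 turned to -0.44 after release.

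Within the stretch the codes differed from each other by more than the counting error. In HAC 1-20 the density ran from 0.53 at T084 to -1.08 at T088, with T092 at -0.85. In HAC 4-65 it ran from 0.46 at T091 and 0.39 at T089 to -1.17 at both T086 and T088, with T092 at -0.75 and T093 at -0.71. T092 was below T091 in 7 of 7 conditions in both lines, by 0.88 (-0.88) and 1.22 (-1.22) in untreated cells. T094 was below T093 in 7 of 7 conditions in both lines. Over the 9 codes that both lines carried, the densities of untreated cells had a Pearson correlation of 0.444, given as a description, since all codes of a line share its libraries.

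The marks changed along the codes as well. The level of a mark is log2 of its reads plus 0.5 minus the mean over the other 5 marks, set to 0 at the median carried code, so that opposite signs are in part built in. In untreated HAC 1-20 cells H3K9me3 went from a median of -1.36 over T070 to T083 to 0.06 over T084 to T093 and 0.54 over T094 to T110. H3K36me2 went from -1.25 to 0.16 and 0.85. H4K20me1 went the other way, from 0.72 to -0.12 and -1.12, and H4K8ac from 0.67 to -0.21 and -0.60. The H3K9me3 and H3K36me2 libraries of these cells were shallow, with 1462 and 2977 T reads. The CENP-A densities of untreated HAC 1-20 cells also use both libraries.

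In HAC 4-65 the step into T084 to T093 had the same sign for these 4 marks, with other sizes. Its H3K9me3 medians were -0.68, 0.03 and 0.86, and its H3K36me2 medians -0.47, -0.04 and 0.08. The medians over T094 to T110 rest on 2 carried codes in this line. H4K20me1 went from 0.70 to -1.23, and every one of the 9 codes lay below the median of T070 to T083. In untreated cells it was then 0.23 higher over T094 to T110. That further H4K20me1 step was above 0 in 3 and below 0 in 4 of the 7 conditions, from -2.37 to 0.77. In HAC 1-20 it was below 0 in 7 of 7. H4K8ac went from 0.24 to -0.01. H3K4me2 was higher over T084 to T093 than before them in this line (0.72 against 0.22) and lower in HAC 1-20 (-0.15 against 0.16).

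Over the 7 conditions the H3K9me3 step from T070 to T083 into T084 to T093 was above 0 in 7 of 7 in both lines. It ran from 0.87 to 2.18 in HAC 1-20 and from 0.04 to 1.29 in HAC 4-65. The H4K20me1 step was below 0 in 7 of 7 in both lines, from -1.95 to -0.27 and from -1.95 to -0.57. The H3K36me2 step was above 0 in 7 of 7 conditions in HAC 1-20 and 6 of 7 in HAC 4-65, and the H4K8ac step below 0 in 7 of 7 and 6 of 7. The H3K4me2 and H3K14ac steps changed sign among conditions in both lines. These are counts of conditions in 2 clones, and the steps were not tested. The mark steps were not set against T080 to T083 alone, so they do not place a border at T083.

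T084 and T091 stood out in HAC 1-20. T084 had the mark levels of the codes before it, with H4K8ac at 0.95, H3K36me2 at -1.65 (15 reads), H3K9me3 at -1.09 (11 reads) and H4K20me1 at 0.49. T091 had the lowest H3K9me3 level of the 10 codes at -1.72, from 9 reads or 0.616% of the 1462 T reads of that library. Its interval (-2.65 to -0.80) overlapped that of T084 (-1.94 to -0.24). Over the 7 conditions the H3K9me3 share was 0.488% to 1.12% for T091 and 0.324% to 0.752% for T084. T090, the neighbour of T091 by number, had 1.89% to 2.94%. In HAC 4-65 T084 had no such pattern, with H3K9me3 at 0.03, H4K20me1 at -1.56 and the highest H3K4me2 level of the 9 codes at 1.12.

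CENP-A was then compared between conditions. The question was whether T084 to T093 hold more or less of the CENP-A reads over the cell cycle or after HJURP or KAT7 depletion. With 1 library per line and condition, the 2 lines stood as the 2 samples of a condition, and the spread is the disagreement between the lines. The 27 codes carried in both lines were fitted together by edgeR's quasi-likelihood test with the T reads as library size, and p-values were adjusted by Benjamini-Hochberg over the 27 codes. A change is therefore a change in the share of CenU reads. A rise or fall common to all codes does not show in it. For the amount of CENP-A, the paper reported by quantitative PCR a fall from thymidine to colcemid and a rise after release. The comparisons among the synchronized cells share libraries, as do those with siControl.

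From thymidine to colcemid, the shares of T090 and T091 fell. In HAC 1-20 T090 had 2.50% of the CENP-A T reads with thymidine and 1.17% with colcemid, and in HAC 4-65 4.62% (3.84 to 5.50, from 120 reads) and 3.70%. T091 had 2.26% and 0.832% in HAC 1-20, and 3.46% (2.79 to 4.24, from 90 reads) and 2.98% in HAC 4-65. The change was large in HAC 1-20, and in HAC 4-65 the counting intervals of both codes overlapped (T090 with colcemid 3.50 to 3.90). Within HAC 4-65 the log2 change was -0.33 for T090 (counting interval -0.59 to -0.04) and -0.23 for T091 (-0.53 to 0.11).

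The fitted log2 change was -0.83 for T091 (SE 0.26, adjusted p = 0.0449 by edgeR) and -0.71 for T090 (SE 0.24, adjusted p = 0.0475 by edgeR). Both were the only codes called lower among the 27, which is 7.41% of those tested, and none was called higher (0%). The fitted change of the other 7 members lay between -0.74 and -0.14, with no call. The median over the 9 members was -0.30, beside -0.14 over all 27 codes. Within HAC 1-20 the share was lower with colcemid in 9 of 10 members, with a median log2 change of -0.64 against 0.14 over all 61 carried codes. Within HAC 4-65 it was lower in 4 of 9, with a median of 0.14 against 0.04 over all 75. Leaving out either HAC 1-20 library gave 0 calls, with T091 at -0.46 without colcemid (adjusted p = 0.957 by edgeR) and -0.49 without thymidine (adjusted p = 0.959 by edgeR), and leaving out either HAC 4-65 library gave 1. DESeq2 also gave 0 calls, with T091 at -0.67 (adjusted p = 0.541), as did the edgeR test with a carried minimum of 0.02% (T091 adjusted p = 0.0902).

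Scaled to the L reads of the NCU repeats in place of the T reads, the median log2 change of all 27 codes from thymidine to colcemid was -1.13. All 9 members were then called lower, among 18 of the 27 codes (66.7%), with a median of -1.33. Relative to the median of all codes, the members lay at -0.20 by this scaling and at -0.17 by the T reads.

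After release from colcemid no member was called against colcemid (0% higher and 0% lower of 27 codes, and 0 of the 9 members at an unadjusted p under 0.05). The fitted changes lay between -0.05 and 0.45, the highest being T088 with 38 and 70 reads in HAC 1-20 and 26 and 31 in HAC 4-65. T091 went from 0.832% to 1.32% in HAC 1-20 and from 2.98% to 3.42% in HAC 4-65, a fitted log2 change of 0.40. T090 went from 1.17% to 1.30% and from 3.70% to 3.97%, a change of 0.12. Both were higher after release in both lines, but no call was made.

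Released cells were not called different from thymidine cells either (0% of 27 codes in each direction, and 1 member at an unadjusted p under 0.05). T090 had the lowest of the members' fitted changes at -0.59 (adjusted p = 0.402 by edgeR), with -0.94 within HAC 1-20 and -0.22 within HAC 4-65. In HAC 1-20 all 10 members had a lower share after release than with thymidine, with a median of -0.51 against 0.07 over its 61 codes. In HAC 4-65 it was 3 of 9, with a median of 0.15 against 0.00 over its 75 codes.

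In siHJURP cells the CENP-A share was higher than in siControl cells for 7 of the 10 codes in HAC 1-20 and for 5 of the 9 in HAC 4-65. Over all carried codes it was higher for 27 of 61 and 34 of 75, and over T094 to T110 for 12 of 16 and 0 of 2. The 5 codes of HAC 4-65 included T088, with 0 reads in siControl and 5 in siHJURP cells. In HAC 1-20 T091 had 1.14% with siControl and 2.11% with siHJURP, and in HAC 4-65 2.69% (1.87 to 3.74, from 34 reads) and 4.55% (4.01 to 5.14). T090 had 1.40% and 2.33% in HAC 1-20, and 4.19% (3.16 to 5.45, from 53 reads) and 3.55% (3.07 to 4.09) in HAC 4-65. T091 was thus higher in both lines and T090 in 1 of them.

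The fitted log2 change was 0.83 for T091 (SE 0.27, adjusted p = 0.0705 by edgeR) and 0.31 for T090, and no code was called (0% of 27 in each direction, 1 member at an unadjusted p under 0.05). The median over the 9 members was 0.30, beside 0.09 over all 27 codes. Scaled to the L reads T091 was called higher, at 1.31 (adjusted p = 0.0081 by edgeR, 3.7% of 27 codes), while the median of all codes moved to 0.62. Neither scaling measures the amount of CENP-A. By ChIP with quantitative PCR the paper reported less CENP-A on the HACs of both lines after depletion of either KAT7 or HJURP. A higher share or ratio here is therefore no gain in the amount of CENP-A. In HAC 1-20 the 10 codes together took 17.2% of the T reads with siControl and 21.2% (34456 reads) with siHJURP, and T094 to T110 went from 8.39% to 14.9%. In HAC 4-65 the 9 codes took 18.7%, from 236 reads, and 20.8%.

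With siKAT7 no member was called against siControl (0% of 27 codes in each direction, and 0 members at an unadjusted p under 0.05). The fitted changes lay between -0.40 and 0.51, with medians of -0.01 over the members and over all 27 codes. The 2 lines went opposite ways: the median within-line change was 0.34 in HAC 1-20, where siKAT7 had 3960 T reads, and -0.39 in HAC 4-65, where siControl had 1264. T091 went from 1.14% to 2.22% in HAC 1-20 and from 2.69% to 2.74% in HAC 4-65.

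The siControl cells were also set beside untreated cells, which shows how far CENP-A shares moved between control populations. The untreated CENP-A reads chose the codes, so these values are a description, and no test on them is used as support. T091 had 1.95% in untreated and 1.14% in siControl cells of HAC 1-20, and 5.49% and 2.69% in HAC 4-65. T086 moved the other way, from 1.43% to 2.66% in HAC 1-20, and in HAC 4-65 from 0.646% of the reads to 19 of 1264 reads. Within HAC 1-20 6 of 10 codes were higher in siControl cells, with a median log2 change of 0.09 against 0.05 over its 61 codes. Within HAC 4-65 2 of 9 were higher, with a median of -0.21 against 0.32 over its 75 codes.

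Among the marks, fitted in the same way, 4 calls fell on members over 36 comparisons, among 7 calls over all 27 codes. The H4K8ac reads of T093 fell after release, from 1.20% with thymidine and 1.14% with colcemid to 0.200% in HAC 1-20, and from 1.83% and 1.60% to 0.0463%, or 13 reads, in HAC 4-65. The fitted log2 changes were -3.43 against thymidine (SE 0.75, adjusted p = 0.035 by edgeR) and -3.29 against colcemid (SE 0.74, adjusted p = 0.0437 by edgeR), each the only one of 27 codes called lower (3.7%). The fall was seen in both lines. In the HAC 4-65 library, however, 23 of the 75 carried codes stood at under 25% of their own median over the 49 libraries, against a median of 1 code per library. In the HAC 1-20 library it was 2 of 61. Without the HAC 4-65 release library the change against thymidine was -2.55 (adjusted p = 0.0012 by edgeR). Leaving out either thymidine library lost the call (adjusted p = 0.153 by edgeR in each case), and so did leaving out either colcemid library for the change against colcemid.

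The H4K20me1 reads of T090 were lower after release than with thymidine. They went from 2.91% to 0.911% in HAC 1-20 and from 3.36% to 1.41% in HAC 4-65. The fitted log2 change was -1.46 (SE 0.32, adjusted p = 0.0175 by edgeR), and T090 was the only one of 27 codes called lower (3.7%). The HAC 4-65 release library again had 24 of 75 codes at under 25% of their median, and that of HAC 1-20 had 7 of 61. Without the HAC 4-65 release library the change was -1.62 (adjusted p = 0.0295 by edgeR), and the call was lost without either thymidine library (adjusted p = 0.131 and 0.0796 by edgeR).

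The H3K9me3 reads of T086 were higher in siControl than in untreated cells, at 2.20% against 0.889% in HAC 1-20, where the untreated value comes from 13 reads, and 2.10% against 1.32% in HAC 4-65. The fitted log2 change was 0.85 (SE 0.26, adjusted p = 0.0379 by edgeR), 1 of 2 codes called higher (7.41% of 27). Without the shallow untreated library of HAC 1-20 it was 0.68 (adjusted p = 0.254 by edgeR), and the call was also lost without either siControl library.

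The marks of the depleted cells gave no call on any member. With siKAT7 the median change in H3K14ac was -0.02 over the 9 members, between -1.62 and 0.78, beside 0.04 over all 27 codes, and no code was called by edgeR (0% of 27, and 0 members at an unadjusted p under 0.05). With siHJURP the median H3K9me3 change was -0.06 over the members and 0.27 over the other 18 codes, with 1 member at an unadjusted p under 0.05 and a lowest adjusted p of 0.498 by edgeR. The H3K14ac libraries were the most variable, with a fitted coefficient of variation of 0.747 between libraries against 0.226 for CENP-A and 0.192 for H3K36me2. In the siHJURP H3K14ac library of HAC 4-65 45 of 75 codes, 4 of the members among them, stood at under 25% of their own median.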

How the data were processed

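The deposited files hold read counts per position code, which the authors made by matching trimmed reads to the list of codes and counting with samtools idxstats. The submitters' processing notes name cutadapt 4.0, Bowtie and SAMtools. Files with 128 T codes and 384 L codes each were used as deposited. Reads that matched no code, 5.98 to 12.7% per library, were left out of all totals. Shares are percentages of T reads with exact binomial intervals (95%). Counts of 0 were kept as 0, and the share that 3 counts would make was computed beside them as a floor.

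CENP-A and mark contrasts were fitted with edgeR 4.0.16 (R 4.3.3), with line and condition as terms, on codes carried in both lines. Since nothing but the line repeats a condition, p-values measure the disagreement of 2 clones, and the spread was shared over 27 codes. The fit was tested on simulated CENP-A data for colcemid against thymidine, in 20 runs per size of change. It recovered 46.7% of 2-fold and 98.3% of 4-fold changes. A 2-fold change can thus go without a call. Alternatives were other library sizes, DESeq2 1.42.0, other carried minimums, a pseudocount of 2 and fewer libraries. All 10 codes were named; T090, T091 and called codes got full statistics. The codes, lists and tests were chosen with earlier results of these data known. Libraries of DNA from before immunoprecipitation and of RNA were not used here.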

Additional observations from a re-analysis of the deposited data

How the results depend on the processing

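Across 78 results and 330 alternatives, 251 alternatives were rated the same, 37 moved, 3 reversed, 9 stronger and 30 weaker. A value was rated the same if it stayed within a tolerance set from its error, and a count if it stayed similar. For T090 and T091 a fitted change of sign was also rated the same where neither setting made a call. The 251 thus do not count directions that held. The density step was -1.33 in HAC 1-20 and -1.04 in HAC 4-65 with all 42 mark libraries as stand-in, -1.41 and -1.62 without H4K20me1 and H4K8ac, -0.99 with T065 to T083 before it in HAC 1-20, and, in HAC 4-65, -1.31 with a minimum of 0.02%, -0.85 with means, -1.26 in siControl cells and -1.03 without T088. Against T080 to T083 (chosen after seeing the data, as were siControl cells and the omission of T088) it was -1.23 and, reversed, 1.07. The density of T090 was -0.0703 without those 2 marks, 0.32 with the lower minimum and -0.24 in siControl cells, and that of T091 was 0.37 with all mark libraries, 0.37 without the 2 marks, 0.78 with the lower minimum and, reversed, -0.48 in siControl cells, from 34 CENP-A reads. In siControl cells the mark steps were -0.57 (H3K4me2), -0.57 (H3K14ac), -1.57 (H4K8ac) and 2.18 (H3K9me3) in HAC 1-20, and 0.58 (H3K4me2), -0.14 (H3K14ac, reversed), -0.30 (H4K8ac), -1.56 (H4K20me1), 0.79 (H3K36me2) and 1.29 (H3K9me3) in HAC 4-65. The causes of these shifts were not tested.

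The CENP-A counts for siControl against untreated rest on the reads that chose the codes and support nothing. They were 1 member by the T reads, 6 with the NCU reads as library size, 2 with TMM, 0 with no carried minimum and 0 without the libraries under 10000 reads. DESeq2 also called 1, but in the other direction. Colcemid against thymidine (2 members) gave 9 with the NCU reads, and 0 by DESeq2, with the 0.02% minimum or with no minimum. With the NCU reads, release against thymidine gave 2 and siHJURP against siControl 1. Leaving out 1 library gave 0 to 1 called members for siControl against untreated, 0 to 1 for colcemid against thymidine, and 0 to 0 elsewhere. TMM changed none of the mark counts. Conditions were compared within lines in every fit, since line is a term of it, and the labels number no replicates that could pair libraries further. Depth limits the HAC 4-65 siControl library most: for a count of 0 there the exact upper limit is 0.291%, and the floor of 3 counts is 0.237%.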

Other observations

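CENP-A was also read in untreated cells of 4 other HAC lines, with 1 library each. T088 was low in all 6 lines, between 0.0502% (10 reads, HAC 4-2) and 0.178% (12 reads, HAC 1-8) of the T reads. T085 was well above that in HAC 1-20 (1.57%) and HAC 1-8 (1.41%). The other 4 lines had T085 shares of 0.0317% (HAC 4-65), 0.0201% (HAC 4-2), 0.0182% (HAC 3-6) and 0.0267% (HAC 4-49). T091 ranked first of 128 codes in HAC 4-65. It took 2.66% (rank 6) of the reads of HAC 1-8, 2.10% (rank 14) of HAC 4-2, 1.20% (rank 34) of HAC 3-6 and 1.10% (rank 46) of HAC 4-49, and T090 took 2.28%, 1.02%, 1.57% and 1.39% of the same libraries. T093 was the highest of the 10 codes in HAC 4-2 at 3.47%, and T084 in HAC 3-6 at 3.14%.

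The H3K14ac release library of HAC 1-20 had 22 of 61 carried codes at under 25% of their own median, T089, T090 and T091 among them. In HAC 4-65 T093 was under that level in the release libraries of H3K4me2, H4K8ac and H4K20me1. T084 was under it with H3K9me3 in the thymidine and siControl libraries of HAC 1-20.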
